A study of Mus musculus with 23 samples.

Results

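Accessibility was described at NR5A2-bound regions of 10 mouse genes of cell polarity and Hippo signalling: Pard3, Pard6b, Prkci, Prkcz, Llgl1, Llgl2, Amotl2, Lats1, Lats2 and Yap1. A region belonged to a gene when that gene's span was the nearest protein-coding span in the RefSeq gene table (GRCm38.p6) and lay within 50 kb of the region's midpoint, on autosomes. The rule found 20 of the 16958 listed regions (mm10), at 8 of the 10 genes, and none at Prkcz or Llgl2. Of 5 listed regions within 50 kb of Prkcz and 3 within 50 kb of Llgl2, each was nearest to another gene. No region with a member as its nearest gene lay beyond 50 kb, and the farthest one included lay 46.5 kb from Amotl2. The rule uses position only, while the genes were named with earlier results of these data known. Inside a gene means within its span; exons and introns were not used here.

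ATAC-seq, which maps open DNA by transposase insertion, was performed on 8-cell embryos in 2 series. The knockout group of the maternal-zygotic (mz) series, labelled mz_NrKO, held 13 single embryos taken ex vivo, and its comparison group mz_NrHet held 8 heterozygous embryos; the labels do not say whether the heterozygotes had maternal Nr5a2. In the inducible series (iNrKO), embryos were dissected 30 h post hCG and grown in culture over 45 h. There, 1 pool received 750 nM 4-hydroxytamoxifen (4-OHT) for the first 24 h and 1 pool was left untreated. Their genotype labels are iNrKO_plus_Tam_NrKO and iNrKO_minus_Tam_Nrpp, and what Nrpp stands for is not stated; no source names the Cre driver, and the samples include no 4-OHT-treated pool of embryos that keep the gene. The deposited table gives 1 RPKM value (a read count scaled by library depth and by the length of the counted window) per group and region, with the embryos of a group merged, so the variation from embryo to embryo is not known, and the exact tests below compare merged libraries, not conditions. All ATAC-seq values came in steps of 1 read, worth 0.359 RPKM in mz_NrKO, 0.587 in mz_NrHet, 0.170 in the treated and 0.163 in the untreated pool. A read had the same worth in regions of every length, so the values are not scaled by the listed length, and the window the authors counted is not stated. Over all regions the recovered reads totalled 109296 in mz_NrKO, 99826 in mz_NrHet, 190091 in the treated and 285671 in the untreated pool. For the same 4 columns, a count of 0 allows up to 3 reads, or 1.08, 1.76, 0.510 and 0.490 RPKM. Intervals and limits cover counting error only.

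Polarity proteins set up the difference between the outward-facing and inward-facing surfaces of blastomeres from the 8-cell stage on. The PAR complex, made of PARD3, PARD6B and an atypical protein kinase C, gathers at the outward-facing apical surface, while LLGL proteins act on the basolateral side and oppose it. In the Hippo pathway the kinases LATS1 and LATS2 phosphorylate YAP1 and keep it out of the nucleus, and angiomotin family proteins such as AMOTL2 bind YAP1 and take part in LATS activation. In outer, polarised cells Hippo signalling is low and YAP1 works with TEAD factors in the trophectoderm programme. NR5A2 is a nuclear receptor whose loss in early embryos is the subject of the study. Accessibility at a region near a gene is not a measure of that gene's transcription.

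NR5A2 binding was mapped in an earlier study by CUT&RUN, which releases DNA at sites held by the factor, and the sequence at Prkci is shown because its promoter window was the only member window that a listed region overlapped. The stretch below is the part of the Prkci region that lies in the RefSeq promoter window (GRCm38.p6, the assembly of mm10, plus strand, chr3:30995521-30995751). It covers 231 bases, 64.9% of the region, and ends 20 bases before the start site. Capitals mark the 21 bases centred on the authors' ATAC-seq summit, 33 bases before the start site. The CUT&RUN summit lies 1 base upstream of the first base printed.
Prkci promoter part: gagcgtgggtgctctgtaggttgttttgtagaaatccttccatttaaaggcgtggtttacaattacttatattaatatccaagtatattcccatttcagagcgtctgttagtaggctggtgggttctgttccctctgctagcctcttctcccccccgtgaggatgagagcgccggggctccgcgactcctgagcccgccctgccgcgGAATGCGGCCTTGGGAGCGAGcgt

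The printed stretch has a G and C content of 54.1% and 14 CpG dinucleotides. Neither AAGGTCA nor AAGGCCA, the NR5A2-type half-site letters searched on both strands, is in it. None of the 13 promoter windows of 9 member genes in the RefSeq table held either motif, against 10.6% of all 32851 windows of 300 bases (250 before and 50 after a start) and 21.0% of the 587 windows that a listed region overlaps. Llgl2 had no entry. The match is to letters only. The part of the Prkci region upstream of the printed stretch, which holds the CUT&RUN summit, was not searched. The other 19 member regions lie outside these windows.

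Across all 20 member regions, mean accessibility was 2.69 RPKM in mz_NrKO and 4.02 RPKM in mz_NrHet. The ratio of summed RPKM was 0.668 (exact 95% counting interval 0.527 to 0.849), against 0.668 (0.663 to 0.674) over all 16958 regions. The inducible means were 1.85 RPKM in the treated and 2.88 RPKM in the untreated pool, a ratio of 0.644 (0.541 to 0.764) against 0.694 (0.690 to 0.698) over all regions. The member interval holds the ratio of all regions in both series. On the log2(RPKM + 1) scale, which understates changes of low regions, the member median difference was −0.54 in mz embryos and −0.29 in iNrKO pools. Over all regions the corresponding medians were −0.32 and −0.35. These are descriptions of the list with no test.

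Of the 20 regions, 1 was lower past the threshold in mz_NrKO (exact binomial test on recovered reads, Benjamini-Hochberg adjusted over all regions at 0.05), where 1.73% of all regions were lower, and none was higher, where 0.0236% were. In the treated pool 2 members were lower, against 6.37% of all regions, and none was higher, against 0.0767%. At an unadjusted p under 0.05, 3 members were lower and 0 higher in mz_NrKO, and 6 lower and 0 higher in the treated pool (backgrounds 11.9%, 0.708%, 19.7% and 0.879% in that order). Against these backgrounds, 1 and 2 calls among 20 regions are no result about the members. All 3 calls lay at genes of the PAR complex, Pard3 and Pard6b. This grouping was seen after the values were known and was not tested. Under other settings the share of all regions called lower in mz_NrKO was 0.307% with the median set to 0, 0.0826% with the summed ratio set to 1 and by Fisher's exact test, 5.9% of those with at least 10 reads, 0.389% at a threshold of 0.01 and 2.98% at 0.1. For the treated pool these shares were 1.17%, 0.46%, 7.91%, 2.03% and 10.1%.

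**Figure D1:**
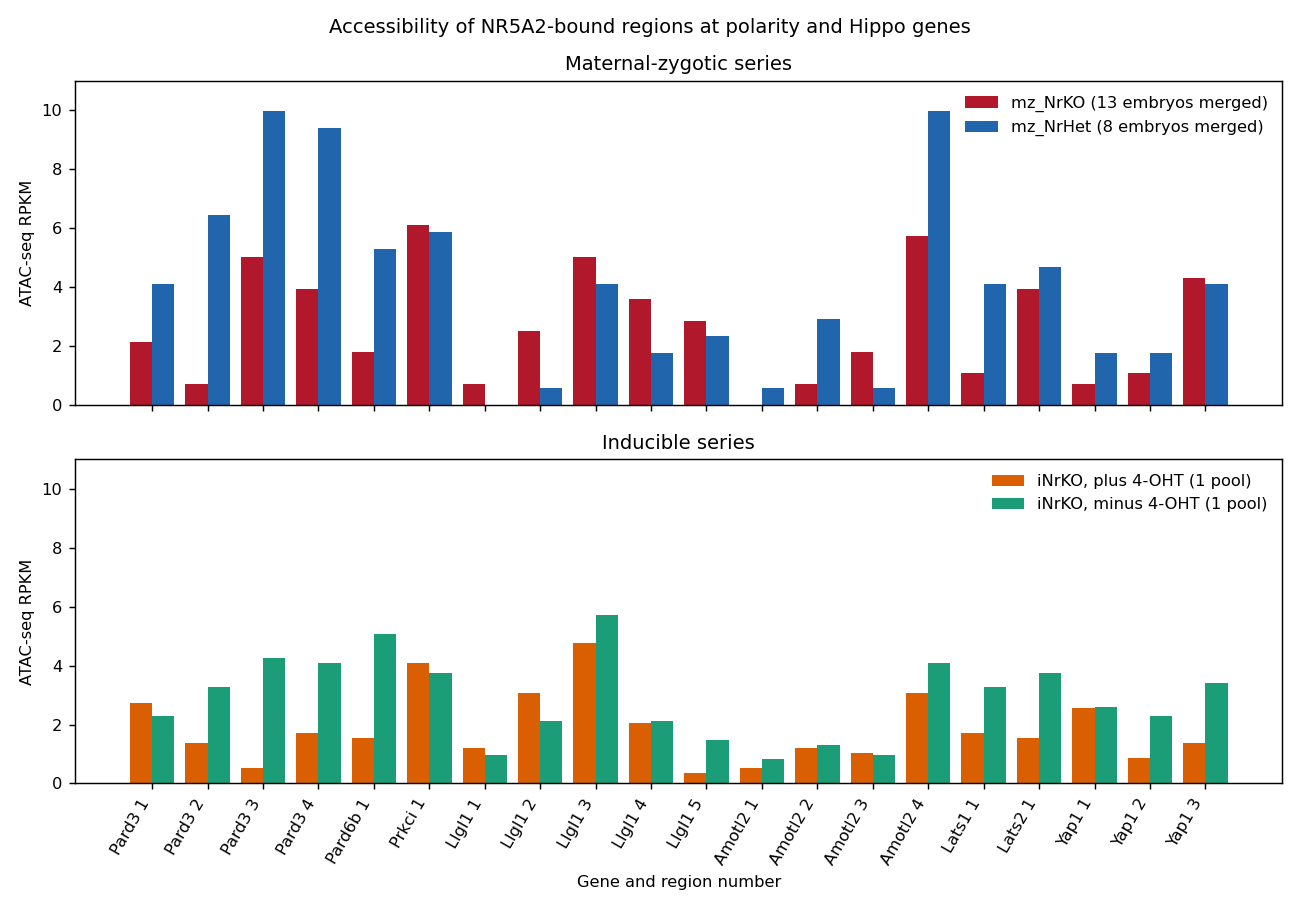
ATAC-seq RPKM at each of the 20 member regions (gene and region number along the x axis), with mz_NrKO left of mz_NrHet in the upper panel and the treated left of the untreated pool in the lower panel. Each bar is 1 merged or pooled value with no replicate error; the 3 regions inside Pard3 stand lower in mz_NrKO and in the treated pool, and the 5 Llgl1 regions stand higher in mz_NrKO.

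PARD3 is the scaffold of the apical PAR complex, and its gene held 4 regions, all in the authors' accessible class. The region 36.4 kb downstream of the nearest Pard3 start, inside the gene (region 2, chromosome 8, 127100086 to 127100735), had 0.717 RPKM in mz_NrKO and 6.46 RPKM in mz_NrHet. These values rest on 2 and 11 reads, and the region fell to a ratio of 0.111 (0.0120 to 0.509), with an adjusted p of 0.0475 by the exact binomial test. It was the only member call in that comparison and sits just under the threshold. The same region had 1.36 RPKM in the treated and 3.26 RPKM in the untreated pool, a ratio of 0.417 (0.159 to 0.988), and did not pass (adjusted p = 0.203, exact binomial test).

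The next Pard3 region (region 3, chromosome 8, 127125868 to 127126077) lay 61.9 kb downstream of a start, also inside the gene. It was the only Pard3 region past the adjusted threshold in the inducible series. It had 0.510 RPKM in the treated pool and 4.24 RPKM in the untreated pool, 3 against 26 reads, a ratio of 0.120 (0.0233 to 0.393) with an adjusted p of 0.00199 (exact binomial test). In the mz series it had 5.02 RPKM in mz_NrKO and 9.99 RPKM in mz_NrHet, a ratio of 0.503 (0.229 to 1.08), and did not pass. An exact test on all 4 read counts compared its mz and inducible ratios and gave an unadjusted p of 0.0445 and an adjusted p of 1.00, so a difference between the series was not established. This call was the only member call that stayed past the threshold after the median of all log2 ratios was set to 0 (adjusted p = 0.0264, exact binomial test), and it was lost when the summed ratio of all regions was scaled to 1 (adjusted p = 0.0699, exact binomial test).

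The third intragenic Pard3 region (region 4, chromosome 8, 127437897 to 127438160) lay 138 kb downstream of the nearest Pard3 start, 3.26 kb from the start of LOC115486907, and had the strongest NR5A2 binding of the 4, 8.03 RPKM in CUT&RUN. Its ratios were 0.420 (0.176 to 0.963) in mz embryos and 0.417 (0.179 to 0.899) in iNrKO pools, from 3.95 RPKM in mz_NrKO and 9.40 RPKM in mz_NrHet, and from 1.70 RPKM in the treated and 4.08 RPKM in the untreated pool. Neither comparison passed the adjusted threshold. The region 37.1 kb outside the gene, upstream of it (region 1, chromosome 8, 127026213 to 127026411), differed from the 3 intragenic ones in the inducible direction. It had 2.15 RPKM in mz_NrKO and 4.11 RPKM in mz_NrHet, but 2.72 RPKM in the treated and 2.29 RPKM in the untreated pool. These inducible values rest on 16 and 14 reads, a ratio of 1.19 (0.545 to 2.64) that did not pass. That interval includes the ratio over all regions, 0.694. Summed over the 4 regions, Pard3 had 11.8 RPKM in mz_NrKO and 30.0 RPKM in mz_NrHet, a ratio of 0.395 (0.247 to 0.624), and a ratio of 0.454 (0.300 to 0.675) in the inducible series. Both intervals lie below the ratio over all regions; Pard3 was 1 of 8 genes looked at, and the intervals are not adjusted for that.

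PARD6B, which joins the atypical kinase to PARD3, had 1 accessible region, 0.801 kb beyond the 3′ end of its gene (chromosome 2, 168101912 to 168102095). It had 1.53 RPKM in the treated pool and 5.06 RPKM in the untreated pool, 9 against 31 reads, and fell to a ratio of 0.303 (0.127 to 0.651), with an adjusted p of 0.0215 by the exact binomial test. It did not pass with the median of all regions set to 0 (adjusted p = 0.188, exact binomial test) or their summed ratio set to 1 (adjusted p = 0.301, exact binomial test). The region also had 1.79 RPKM in mz_NrKO and 5.29 RPKM in mz_NrHet, a ratio of 0.339 (0.0893 to 1.13) on 5 against 9 reads, which did not pass (adjusted p = 0.391, exact binomial test). The direction was thus the same in both series. Its NR5A2 signal of 9.82 RPKM lay at percentile 93.2 of all regions, and its ATAC-seq summit lay 4 bases from the motif-centred CUT&RUN summit, the closest among the 12 accessible members.

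Prkci encodes the atypical protein kinase C iota of the PAR complex. Its promoter region, whose sequence is given above (chromosome 3, 30995396 to 30995751), had 6.10 RPKM in mz_NrKO and 5.87 RPKM in mz_NrHet. The inducible values were 4.08 RPKM in the treated and 3.75 RPKM in the untreated pool. The ratios of 1.04 (0.449 to 2.54) and 1.09 (0.588 to 2.02) did not pass the exact test and do not exclude the ratios of all regions, 0.668 and 0.694. The 481 listed regions that overlap any promoter window had summed ratios of 0.793 (0.770 to 0.816) and 0.858 (0.838 to 0.878), higher than the values over all regions. At the Prkci region the authors left the CUT&RUN summit where it was, which was so at 2 of the 20 members, the other being at Amotl2. The motif-centred summit differed from the original one at 90.0% of members and at 89.3% of all regions.

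**Figure D2:**
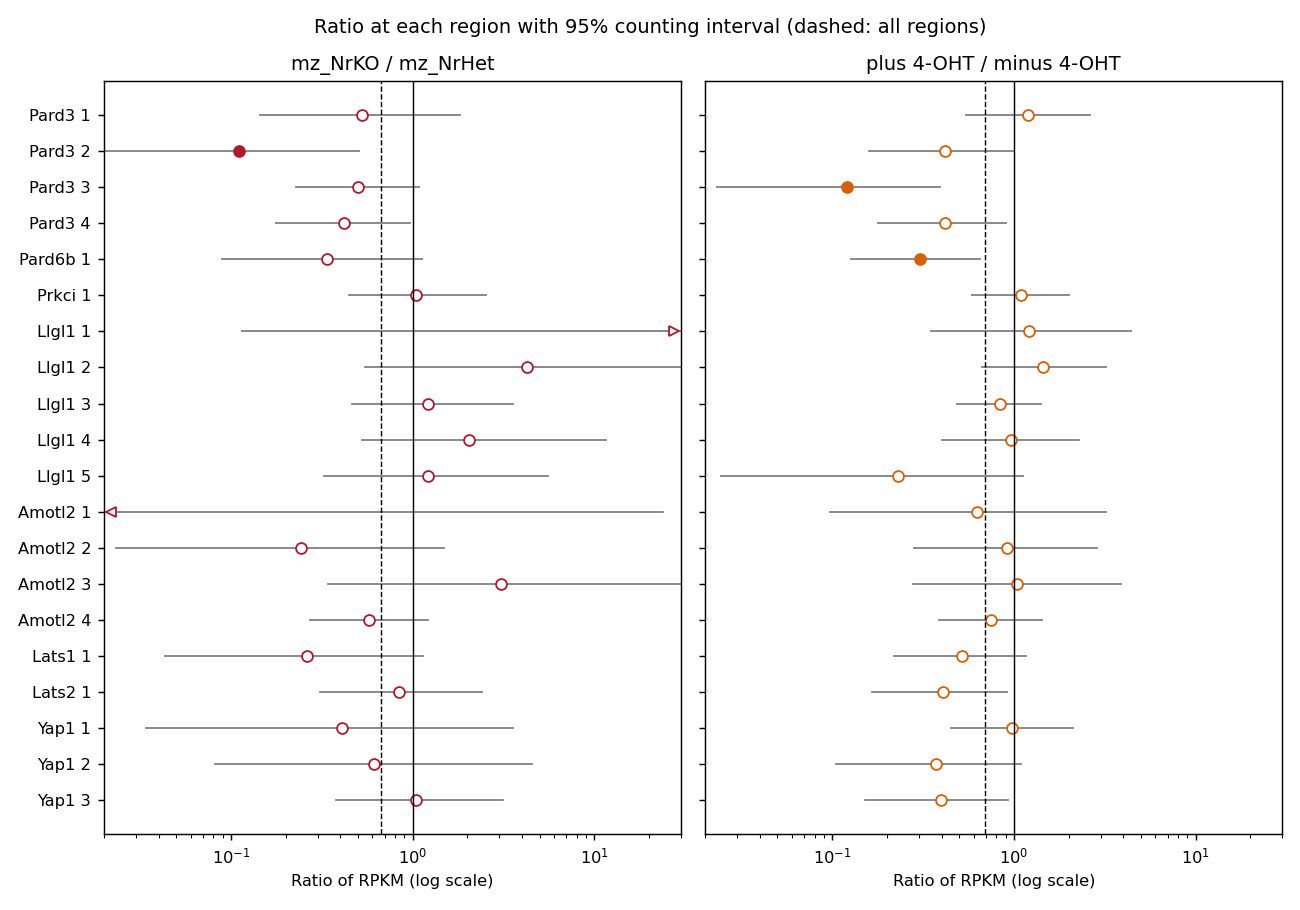
Ratio of RPKM at each member region (one row per region, log scale), mz_NrKO over mz_NrHet on the left and treated over untreated pool on the right, with exact 95% counting intervals. Filled points passed the adjusted threshold (Pard3 region 2 on the left; Pard3 region 3 and Pard6b on the right), triangles stand for ratios with 0 reads in 1 column, intervals that reach a panel edge go on beyond it, and the dashed lines mark the ratios over all regions, 0.668 and 0.694.

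LLGL1 is a basolateral polarity protein, and its gene had the most regions, 5, all upstream of the gene and 3.23 to 26.4 kb from its start. In the mz series all 5 had a higher RPKM in mz_NrKO than in mz_NrHet, but none passed the test, and the unadjusted p ranged from 0.273 to 1.00 (exact binomial test). The most accessible of them (region 3, chromosome 11, 60687542 to 60687904) had 5.02 RPKM in mz_NrKO and 4.11 RPKM in mz_NrHet. Region 4 (60694366 to 60694560) had 3.59 RPKM in mz_NrKO and 1.76 RPKM in mz_NrHet. Of the remaining regions, region 1 (60673118 to 60673498) had 2 reads in mz_NrKO and 0 in mz_NrHet, both under the limit of 3 reads. Region 2 (60674442 to 60674672) had 2.51 RPKM in mz_NrKO and 0.587 RPKM in mz_NrHet, 7 reads against 1, a ratio of 4.27 (0.549 to 193). Region 5 (60696309 to 60696639) had 2.87 RPKM in mz_NrKO and 2.35 RPKM in mz_NrHet.

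Summed over its 5 regions, Llgl1 had 14.7 RPKM in mz_NrKO and 8.81 RPKM in mz_NrHet, 41 against 15 reads, a ratio of 1.67 (0.904 to 3.25). The interval includes 1 and lies above the ratio over all regions, 0.668. Like Pard3, Llgl1 was 1 of 8 genes looked at, and its interval is not adjusted for that. The inducible sums were 11.4 RPKM in the treated and 12.4 RPKM in the untreated pool, a ratio of 0.919 (0.652 to 1.29), whose interval includes the ratio over all regions. Region 1 had 1.19 RPKM in the treated and 0.979 RPKM in the untreated pool, and region 2 had 3.06 and 2.12 RPKM in the same order. Region 3 had 4.76 RPKM in the treated and 5.71 RPKM in the untreated pool, and region 4 had 2.04 and 2.12 RPKM in the same order. None passed the threshold, and the ratios of regions 3 and 4 turned above 1 under both scalings. Region 5 had 0.340 RPKM in the treated and 1.47 RPKM in the untreated pool, 2 against 9 reads (adjusted p = 0.278, exact binomial test). Regions 1 and 2 have midpoints 1249 bases apart, and whether they share reads was not tested. Without Llgl1, the ratio over the remaining 15 members was 0.545 (0.417 to 0.712) in mz embryos and 0.568 (0.463 to 0.695) in iNrKO pools. Leaving out Pard3 instead moved the ratio over 16 members the other way, to 0.831 (0.623 to 1.11) in mz embryos. That interval includes 1. The inducible ratio without Pard3 was 0.704 (0.580 to 0.853).

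**Figure D3:**
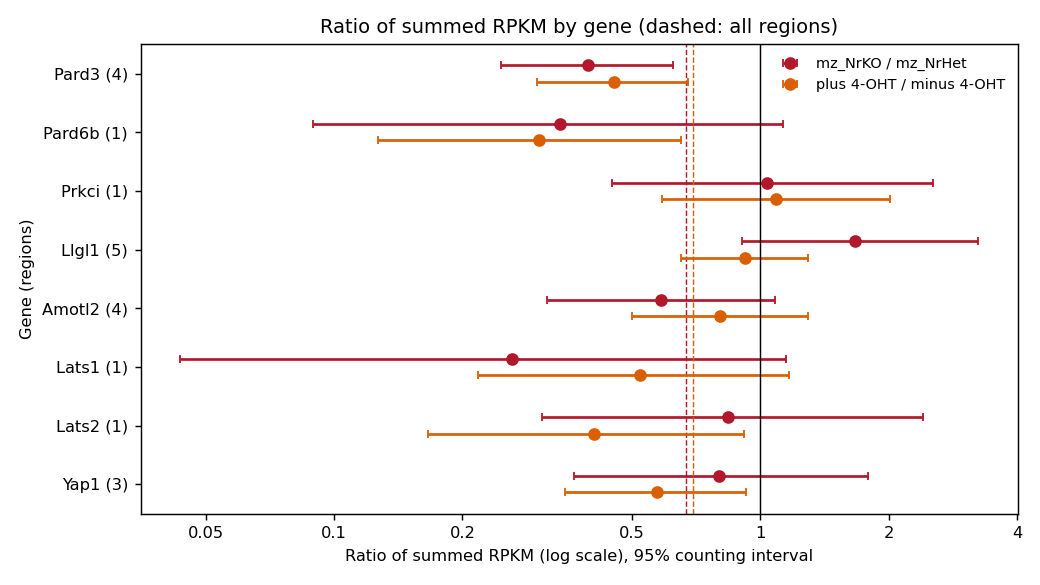
Ratio of summed RPKM for each of the 8 genes with a region (number of regions in brackets, log scale) in the mz series (red, upper point) and the inducible series (orange, lower point), with exact 95% counting intervals; dashed lines give the ratios over all regions. Pard3 (0.395 and 0.454), Pard6b (0.339 and 0.303) and Lats1 (0.262 and 0.521) lie below the dashed lines in both series. Only at Pard3 do both intervals exclude the lines. Llgl1 lies highest in the mz series, at 1.67.

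AMOTL2, an angiomotin family protein that binds YAP1, had 4 regions at its gene, 3 of them in the not accessible class. The accessible one (region 4, chromosome 9, 102779770 to 102780005), 46.5 kb from the gene, was the most accessible member by the mean of the 4 columns, 5.72 RPKM, although its NR5A2 signal of 1.77 RPKM lay at percentile 8.20. It had 5.74 RPKM in mz_NrKO and 9.99 RPKM in mz_NrHet, and 3.06 RPKM in the treated and 4.08 RPKM in the untreated pool. The ratios of 0.575 (0.272 to 1.21) and 0.751 (0.386 to 1.43) did not pass. Region 2 (102734522 to 102734691), 1.19 kb beyond the gene's 3′ end, had 0.717 RPKM in mz_NrKO and 2.94 RPKM in mz_NrHet, with 1.19 RPKM in the treated and 1.31 RPKM in the untreated pool. Region 3 (102746945 to 102747386) had the opposite direction in the mz series, 1.79 RPKM in mz_NrKO and 0.587 RPKM in mz_NrHet on 5 reads against 1, with 1.02 RPKM in the treated and 0.979 RPKM in the untreated pool. Region 1 (102687308 to 102687496) was covered by 0 reads in mz_NrKO and 1 in mz_NrHet, too few for a ratio, and had 0.510 RPKM in the treated and 0.816 RPKM in the untreated pool. The gene's summed ratios were 0.585 (0.316 to 1.08) and 0.806 (0.499 to 1.29). For regions 2, 3 and 4 the nearest start site of any gene was that of Gm5627, at 5.04, 7.52 and 40.2 kb. The Amotl2 start lay 16.8, 29.4 and 62.1 kb from them.

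The Hippo kinase genes had 1 intragenic region each. The Lats1 region (chromosome 10, 7709379 to 7709633), 28.3 kb downstream of its start, had the strongest NR5A2 binding of all members, 15.3 RPKM in CUT&RUN at percentile 98.8. It had 1.08 RPKM in mz_NrKO and 4.11 RPKM in mz_NrHet, and 1.70 RPKM in the treated and 3.26 RPKM in the untreated pool. The ratios were 0.262 (0.0437 to 1.15) on 3 against 7 reads and 0.521 (0.218 to 1.17) on 10 against 20 reads, below 1 in both series without passing the adjusted threshold. The Lats2 region (chromosome 14, 57707509 to 57707803) was in the not accessible class, with 3.95 RPKM in mz_NrKO and 4.70 RPKM in mz_NrHet. In the treated pool it had 1.53 RPKM against 3.75 RPKM in the untreated pool, a ratio of 0.408 (0.166 to 0.915) with an adjusted p of 0.150 (exact binomial test). Its mz ratio was 0.839 (0.308 to 2.40).

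YAP1, the transcriptional coactivator that the pathway restrains, had 3 regions inside its gene. Region 1 (chromosome 9, 7945282 to 7946020), 58.9 kb from the start, had the second strongest NR5A2 signal among the members, 11.1 RPKM, and was the accessible one of the 3. It had 0.717 RPKM in mz_NrKO and 1.76 RPKM in mz_NrHet, on 2 and 3 reads. In the inducible series, where the depth was greater, it had 2.55 RPKM in the treated and 2.61 RPKM in the untreated pool, a ratio of 0.977 (0.450 to 2.11). The other 2 regions were lower in the treated pool without passing the threshold. Region 3 (7995364 to 7995688) had 1.36 RPKM in the treated and 3.43 RPKM in the untreated pool, a ratio of 0.397 (0.152 to 0.933), but 4.30 RPKM in mz_NrKO and 4.11 RPKM in mz_NrHet. Region 2 (7989559 to 7989794) had 0.851 RPKM in the treated and 2.29 RPKM in the untreated pool, and 1.08 RPKM in mz_NrKO and 1.76 RPKM in mz_NrHet on 3 reads each. Summed over the gene, the ratios were 0.798 (0.365 to 1.79) in mz embryos and 0.572 (0.348 to 0.925) in iNrKO pools.

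The members were also split by position within the locus. The 8 regions inside a gene, at Pard3, Lats1, Lats2 and Yap1, had a summed ratio of 0.492 (0.342 to 0.705) in mz embryos and 0.430 (0.319 to 0.573) in iNrKO pools. The 12 regions outside had 0.864 (0.622 to 1.21) and 0.832 (0.667 to 1.04). Over all listed regions the same split gave 0.664 inside and 0.673 outside in the mz series, and 0.687 and 0.700 in the inducible series. Setting the 2 sides against each other was chosen after the values were seen, and the difference was not tested. In the mz series the order of the 2 sides turned with Pard3 left out of the inside and Llgl1 out of the outside regions. The inside ratio was then 0.676 (0.392 to 1.17). The outside ratio, which still held Pard3 region 1, was 0.623 (0.413 to 0.939). With the same omissions, the inducible values were 0.521 (0.359 to 0.747) inside and 0.773 (0.575 to 1.04) outside. By role, the 11 polarity regions had ratios of 0.690 (0.510 to 0.934) and 0.664 (0.532 to 0.827), and the 9 Hippo regions 0.634 (0.425 to 0.946) and 0.612 (0.459 to 0.811).

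**Figure D4:**
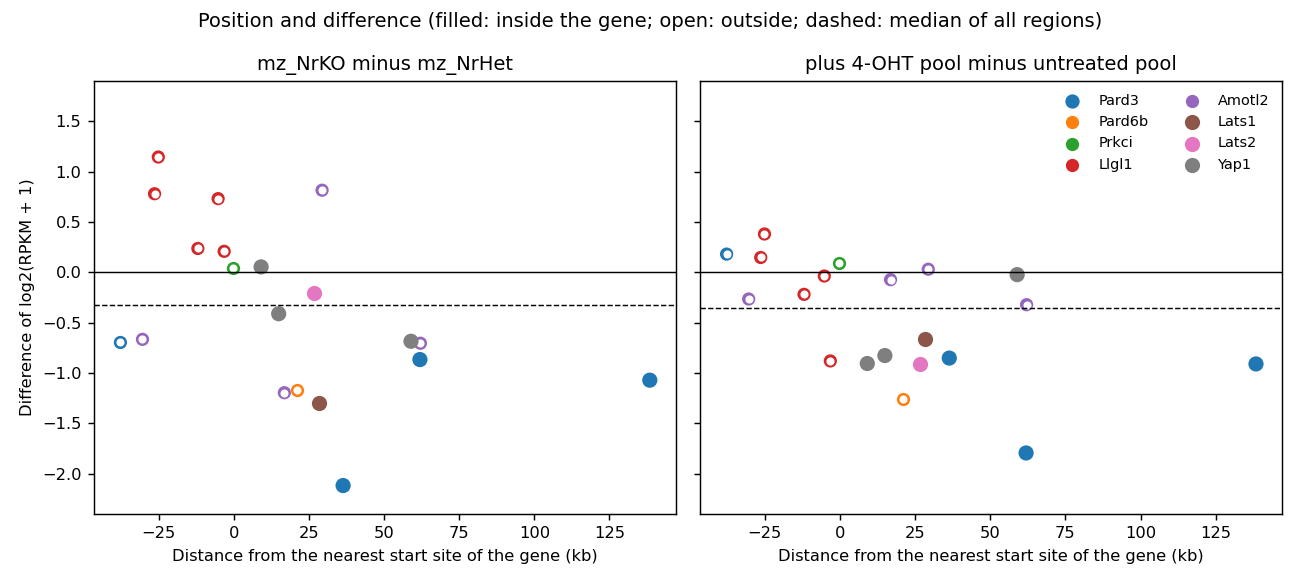
Difference of log2(RPKM + 1) against the distance from the nearest RefSeq start site of the region's own gene (kb, negative values upstream), mz series on the left and inducible series on the right, filled points inside the gene and open points outside. The 8 intragenic regions lie below 0 in the inducible series, and 7 of them in the mz series, although Yap1 region 1 (inducible) and Lats2 (mz) turn above 1 in ratio under both scalings; the 5 Llgl1 regions, all upstream, lie above 0 in the mz series.

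The 2 series share no control column. Of the 20 regions, 12 had a lower RPKM in mz_NrKO than in mz_NrHet (64.3% of all regions did) and 15 a lower RPKM in the treated than in the untreated pool (74.4% of all regions). The direction was down in both series at 11 members, against 50.5% of all regions, and up in both at 4, against 9.98%. Those 4 were the Prkci promoter region, Llgl1 regions 1 and 2 and Amotl2 region 3. Their reads in the treated against the untreated pool were 24 against 23, 7 against 6, 18 against 13 and 6 against 6 in that order. At Amotl2 region 3 the inducible direction thus rests only on the worth of a read. Llgl1 region 1 had 2 reads in mz_NrKO and 0 in mz_NrHet, under the limit of 3 reads. No member passed the exact test of a difference between its 2 ratios, as 0.0177% of all regions did, and 1 member, Pard3 region 3, had an unadjusted p under 0.05, against 4.41% of all regions. The authors' deposited table classes 10 of the 20 members as Down, 7 as Unchanged and 3 as Up, against 41.5%, 41.6% and 16.9% of all regions. The table gives no p with these classes.

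Other features of the regions were set beside those of all listed regions. The authors class 12 of the 20 as accessible (48.5% of all regions), and 8 lie inside a gene (50.9% of all regions). Median NR5A2 binding was 3.46 RPKM at members and 4.15 RPKM over all regions. The median distance between the ATAC-seq summit and the motif-centred CUT&RUN summit was 258 bases over the 12 accessible members and 108 bases over all accessible regions, with values from 4 bases at Pard6b to 779 bases at Pard3 region 4. None of these differences was tested. Read support was low: members had between 1 and 33 reads in the 2 mz columns together and between 8 and 63 in the inducible columns.

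The pathway's other genes were taken from a list of 20 further polarity and 30 further Hippo genes. Of these, 10 polarity genes had 21 regions and 15 Hippo genes had 44. Taok1 alone held 13 of the 44 and Wwc2 held 6, so the genes do not weigh equally in the Hippo values. In mz_NrKO no region of either list passed the test in either direction. At an unadjusted p under 0.05 (exact binomial test), 3 polarity regions were lower and 0 higher, and 7 Hippo regions were lower and 1 higher, where 11.9% of all regions were lower and 0.708% higher. In the treated pool no polarity region and 3 of the 44 Hippo regions were lower past the adjusted threshold, where 6.37% of all regions were, and none was higher. At the unadjusted threshold 2 polarity regions and 11 Hippo regions were lower there and 0 higher, where 19.7% of all regions were lower. These counts are no result about either list. The summed ratios were 0.663 (0.504 to 0.874) and 0.767 (0.652 to 0.903) for polarity, and 0.626 (0.529 to 0.740) and 0.659 (0.586 to 0.740) for Hippo, in the mz and the inducible series in that order.

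The 3 called Hippo regions lay at Fat1, an atypical cadherin gene, and Tead4, the gene of a DNA-binding partner of YAP1 in the trophectoderm. The called region inside Fat1 (chromosome 8, 44993473 to 44993725) had 0.681 RPKM in the treated and 6.37 RPKM in the untreated pool. Its ratio was 0.107 (0.0278 to 0.296) with an adjusted p of 5.83e-05 (exact binomial test). In the mz series it had 2.15 RPKM in mz_NrKO against 7.05 RPKM in mz_NrHet. The call stayed past the threshold after both scalings. Another region inside Fat1 (45050397 to 45050831) had 0.510 RPKM in the treated and 2.12 RPKM in the untreated pool, and passed in neither series. The region inside Tead4 (chromosome 6, 128280737 to 128281225) had 1.36 RPKM in the treated and 4.90 RPKM in the untreated pool, a ratio of 0.278 with an adjusted p of 0.0175 (exact binomial test). A second Tead4 region, 6.02 kb outside the gene (128306595 to 128307063), had 2.89 RPKM in the treated and 7.51 RPKM in the untreated pool, a ratio of 0.385 with an adjusted p of 0.0177 (exact binomial test). Both Tead4 calls were lost after both scalings, and neither region passed in mz_NrKO. The third Tead4 region, 1.30 kb from the gene, had 3.95 RPKM in mz_NrKO and 0.587 RPKM in mz_NrHet, the opposite direction, on 11 reads against 1, and did not pass.

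Markers of granulosa and cumulus cells, which surround the oocyte, had regions at 4 of 11 genes, 4 regions in all, with summed ratios of 1.37 (0.383 to 6.10) in mz embryos and 0.730 (0.397 to 1.32) in iNrKO pools and no calls. The summed level was 9 reads in mz_NrKO and 4 in mz_NrHet, and 21 reads in the treated and 30 in the untreated pool. Amh, Foxl2 and Fshr were among the marker genes without a region under the rule used for the members. The part of these cells in the member values was not tested.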

How the data were processed

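ATAC-seq libraries of 23 samples (13 mz_NrKO, 8 mz_NrHet, 1 treated and 1 untreated iNrKO pool) were grouped by their genotype labels. Cutadapt, Bowtie2, MACS2 and mm10 are named per the submitters' processing notes; versions, insertion shifts, duplicate removal and the way embryos were merged are not given in the sources used here. The deposited table holds, per the file headers, ATAC-seq and CUT&RUN RPKM values that the authors computed, with regions bound by NR5A2 in an earlier study. The deposited ratio columns equalled (knockout + 0.01)/(control + 0.01), with the treated pool on top in the inducible series.

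Reads were recovered by dividing each ATAC-seq RPKM by the worth of 1 read in its column; 100% of values came out whole within 0.001 of a read. Because single embryos have no columns, tests that need replicates could not be made. Each region was tested by a two-sided exact binomial test, Benjamini-Hochberg adjusted over all 16958 regions at 0.05 (SciPy 1.17.1), and ratios have exact Clopper-Pearson 95% intervals conditional on the sum. Differences between series used an exact noncentral hypergeometric test. Scripts were tested on simulated data. Alternatives were 2 scalings, a minimum of 10 reads, Fisher's exact test, other thresholds, distances and summaries, and leaving out genes. Every member region was named; of other genes, each called region. The members and lists were chosen with earlier results of these data known.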

Additional observations from a re-analysis of the deposited data

How the results depend on the processing

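No paired analysis was possible because the table holds 1 merged column per group; for the same reason leaving out single embryos was not possible. The member call in mz_NrKO (1 region) remained at 1 with at least 10 reads per region, at a threshold of 0.1, within 10 kb and inside the gene, and was 0 at a threshold of 0.01, with the median of all log2 ratios (−0.32) set to 0, with the summed ratio scaled to 1 and by Fisher's exact test; the last 3 call 0.307%, 0.0826% and 0.0826% of all regions lower. The 2 calls in the treated pool became 1 with their median (−0.35) set to 0, at a threshold of 0.01 and inside the gene, and 0 with the summed ratio scaled to 1 and by Fisher's exact test. Among all regions, the lower calls in mz_NrKO numbered 52 and 14 under the 2 scalings and 439 with at least 10 reads (7445 regions tested), and in the treated pool 199 and 78. No member passed the test of a difference between series with the summed ratios scaled to 1, with at least 10 reads or within 10 kb, the alternatives run for it.

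The mz ratio over members, 0.668, became 0.492 inside genes and 0.981 over not accessible regions, and 1.00 after division by the ratio of all regions, with the sign of its tiny difference from 1 reversed. The value over the 8 not accessible members has an interval of 0.599 to 1.63. That interval holds 0.734, the ratio over all not accessible regions. The inducible ratio, 0.644, became 0.511 within 10 kb, 0.430 inside genes, 0.816 as a median with a pseudocount of 1, 0.928 divided by the summed and 0.821 divided by the median ratio of all regions. With each gene left out in turn, the ratios in mz embryos stayed between 0.545 (without Llgl1) and 0.831 (without Pard3). In iNrKO pools they stayed between 0.568 (without Llgl1) and 0.704 (without Pard3).

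Single regions not past the threshold changed side of 1 under scaling. With the summed ratio scaled to 1, also in Fisher's exact test, the inducible ratios became 1.31 and 1.08 at Amotl2 regions 2 and 4, 1.20 and 1.39 at Llgl1 regions 3 and 4 and 1.41 at Yap1 region 1, and the mz ratio of Lats2 became 1.26. Scaled to the median they were 1.16 at Amotl2 region 2, 1.06 and 1.23 at Llgl1 regions 3 and 4, 1.25 at Yap1 region 1 and 1.05 at Lats2. Reads limit all of this: 7 of the 20 members had under 10 reads in the mz columns together.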
